A study of Mus musculus with 8 samples.

Results

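The data compare macrophages of the mammary gland between mice carrying the MMTV-iFGFR1 transgene and littermates without it, after 4 weeks of dimerizer. The comparison was formed by the sample titles: 2 control and 2 transgenic pools at 4 weeks, which are 4 of the 8 arrays of the study. Every probe set assigned to 1 gene symbol could enter, which gave 13070 genes. The transgene places an inducible form of fibroblast growth factor receptor 1 (FGFR1) under the mouse mammary tumour virus promoter, active in mammary epithelium, and the dimerizer brings receptor molecules together and so starts their signal. All animals were FVB females, 6 weeks old when dosing began, and the controls received the dimerizer as well. The other 4 arrays, 2 pools per genotype after 48 hours, served as a second time point. Each pool combined sorted cells of 3 mice, and RNA was amplified in 2 cycles before hybridisation to Affymetrix arrays. The labels of transgenic 4 weeks pool 2 disagree: its description speaks of mice without the transgene, whereas the transgenic line is given by its title, by its source and by its genotype. It was used as transgenic, so every direction rests on those 3 labels.

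Mammary macrophages clear dying epithelium, remodel the matrix around growing ducts and present antigen. They are fed by resident cells and by blood monocytes, and their state is read from gene programs: interferon response genes for antiviral defence, MHC class II genes for antigen presentation, cytokines and prostaglandin enzymes for inflammation, and metalloproteases and growth factors for remodelling. The surface marker used for sorting, Cd11b, also marks neutrophils, monocytes, NK cells and a part of the dendritic cells. A sum over a sorted population cannot show whether fewer cells of a kind or less RNA per cell lies behind a lower signal.

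Macrophage markers were measured in all 4 pools. Csf1r, the receptor of colony stimulating factor 1 on which macrophages depend, gave signals of 77590 and 86294 in control pools 1 and 2 and 71036 and 75893 in transgenic pools 1 and 2. Adgre1, which encodes F4/80, gave 9842 and 11955 against 13114 and 14627. Itgam, the gene of Cd11b, gave 545 and 46.8 against 313 and 505, with control pool 2 far below the rest. The 15 measured macrophage markers had a median log2 difference, transgenic minus control, of 0.05. Signals are linear MAS5 values, and log2 differences were taken on log2(signal + 30.8), which shrinks the differences of dim genes. Endogenous Fgfr1 gave 1853 and 581 in the controls and 1318 and 1235 in transgenic pools, so the transgenic pools lay between the controls. The promoter of the transgene is active in epithelium, so this value from sorted macrophages was not used to check the genotype.

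One pool stood apart in RNA quality. Shortened RNA raises the 3' signal of a control transcript over its 5' signal. For beta-actin this ratio was 37.0 in control 4 weeks pool 2, against 6.84 to 13.9 in the other 7 arrays, and for Gapdh it was 12.1 against 6.97 to 8.58. Because it is 1 of only 2 controls, signals are given for each pool, and many list medians and gene differences are also given without it. Array medians ran from 96.4 to 126.9 signal units, and precision is limited by how few arrays there are. Each p-value rests on the spread among pools of 3 mice, and that among single mice is unknown.

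No gene passed limma's test at an adjusted p of 0.05. Of the 13070 genes, 0 were called (0%), and the lowest adjusted p was 0.199, for Dnajc17. At an unadjusted p under 0.05, limma gave 656 genes, 254 higher (1.94%) and 402 lower (3.08%) in transgenic pools, where 654 would arise without any difference. The median log2 difference of all genes was −0.02, with an interquartile range of −0.29 to 0.24. The median absolute genotype difference was 0.26, less than the median absolute difference between the control pools, 0.42, and between the transgenic pools, 0.35. The comparison is therefore described by whether both transgenic pools lay on the same side of both control pools, called here without overlap, and by the gap, the smallest of the 4 differences between a transgenic and a control pool. Without overlap, 1912 genes were higher (14.6%) and 2245 lower (17.2%), together 4157 (31.8%). With 2 pools against 2, random order alone separates many genes, so these counts do not show a genotype difference. A gap of at least 1 log2 unit, that is a 2-fold gap, was found for 57 genes higher (0.436%) and 104 genes lower (0.796%). These shares are the background for every gene group below.

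Genes higher by a gap of 1 stood apart from the 48 hours arrays mostly through the 4 weeks controls, and those lower by it through both genotypes. Among the 57 higher genes, both 4 weeks controls lay below all 48 hours arrays in 33 (57.9%), and both transgenic pools above all of them in 13 (22.8%). Over all genes these shares were 5.07% and 5.57%. Among the 104 lower genes, both controls lay above all 48 hours arrays in 58 (55.8%, against 7.51% of all genes), and both transgenic pools below them in 47 (45.2%, against 5.46%). These genes were chosen for a large difference at 4 weeks, so the shares are a description. The plot of the 30 most separated genes shows both times.

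**Figure D1:**
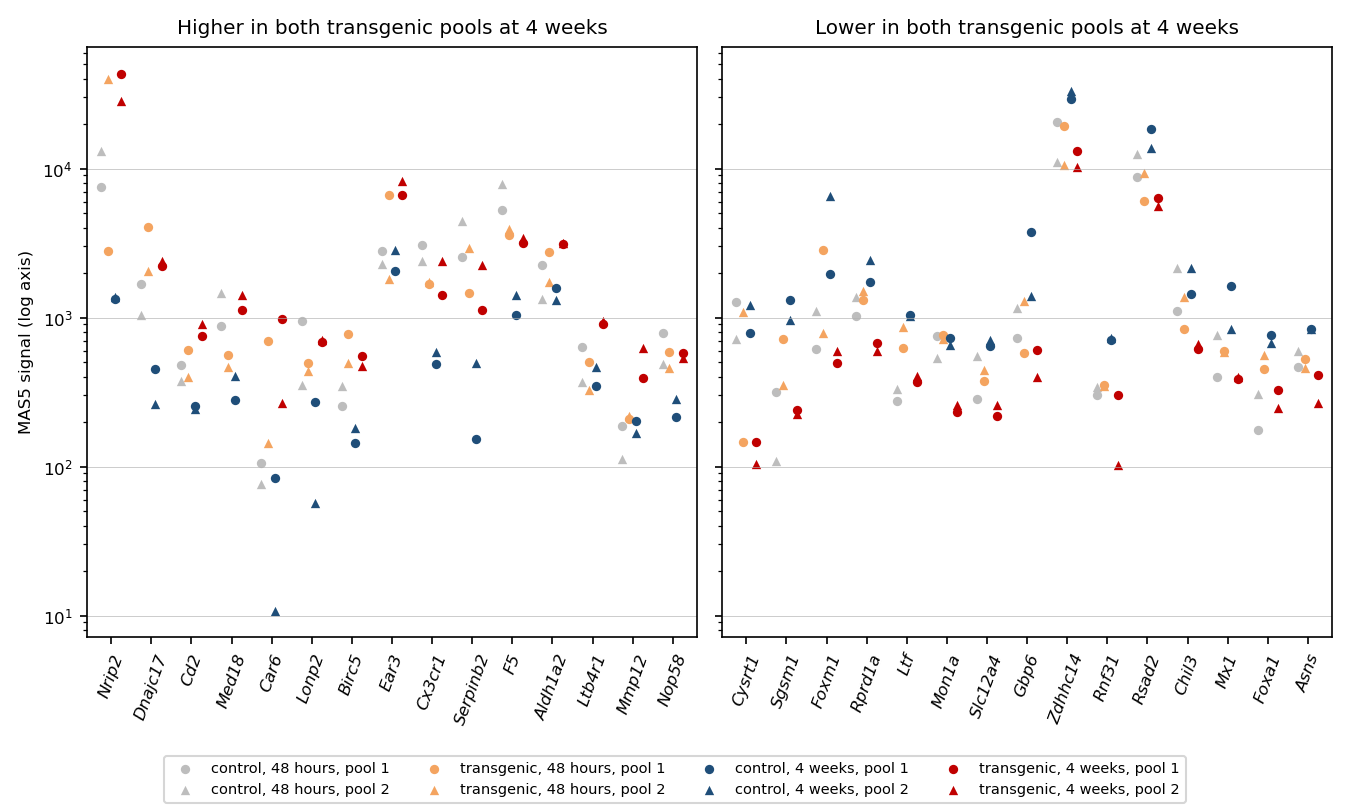
MAS5 signal on a log axis of the 15 genes with the largest gap in each direction among genes with a mean signal of at least 500 in the higher group, 1 point per array; circles are pools 1 and triangles pools 2. Blue control and red transgenic 4 weeks points do not overlap by choice of the genes; for F5, both blue points (1046 and 1427) lie below all grey, orange and red points.

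Cx3cr1, F5 and Serpinb2 were among the genes most clearly higher in both transgenic pools. Cx3cr1, the fractalkine receptor of monocytes and many tissue macrophages, gave 488 and 591 in control pools 1 and 2 and 1409 and 2408 in transgenic pools 1 and 2. At 48 hours it gave 3088 and 2400 in the controls and 1692 and 1732 in transgenic pools. The 4 weeks controls were thus the lowest of the 8 arrays, and the genotypes were ordered oppositely at 48 hours. The log2 difference at 4 weeks was 1.72 (SE 0.29), adjusted p = 0.38 in limma, and 1.85 without control pool 2. F5, coagulation factor V, gave 1046 and 1427 in the controls and 3177 and 3411 in transgenic pools, against 3608 to 7843 at 48 hours. Its log2 difference was 1.41 (SE 0.26) and 1.63 without control pool 2, and its other probe set was separated the same way, at 341 and 811 against 1467 and 1074. Serpinb2, an inhibitor of the plasminogen activator urokinase, gave 153 and 492 against 1131 and 2246, with 1468 to 4450 at 48 hours. Its log2 difference of 2.39 (SE 0.53) became 3.14 without control pool 2 and 1.64 without control pool 1.

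Ltb4r1, Aldh1a2 and Mmp12 were higher in both transgenic pools at 4 weeks than on all other arrays. Ltb4r1, a receptor for the leukocyte attractant leukotriene B4, gave 349 and 466 in the controls and 900 and 950 in transgenic pools. Aldh1a2, which makes retinoic acid, gave 1588 and 1311 against 3131 and 3158. The list of 16 prostaglandin and leukotriene genes, which holds neither Ltb4r1 nor Aldh1a2, had 3 higher without overlap (18.8%, near the background) and a median of 0.08. Mmp12, the elastase of macrophages, gave 202 and 167 against 394 and 628, and the 48 hours arrays lay between 113 and 217. Cd2, an adhesion molecule of T and NK cells, gave 253 and 243 against 754 and 906. Ear3, of the eosinophil-associated ribonuclease family, gave 2055 and 2834 against 6672 and 8220, on a probe set whose sequence can be shared by close relatives of the gene.

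The largest single difference, that of Nrip2, had no support from a further probe set. Nrip2, a nuclear receptor interacting protein, gave 1335 and 1367 in the controls and 43236 and 28524 in transgenic pools, which is a log2 difference of 4.67 (SE 0.89) and 4.69 without control pool 2. At 48 hours its signals were 7488 and 13202 in the controls and 2798 and 40051 in transgenic pools, so pools of 1 genotype differed more than 10-fold there. Another kept probe set of the gene gave 196 and 106 in the controls and 18.9 and 172 in transgenic pools, which overlap. Fitted on the 4 weeks arrays alone, Nrip2 was the 1 gene past limma's threshold, adjusted p = 0.00234. Dnajc17, a J-domain cochaperone of splicing, gave 448 and 262 against 2232 and 2410 on its 1 kept probe set. Its log2 difference was 2.65 (SE 0.38) and 2.30 without control pool 2. The other probe sets of Dnajc17 were too dim to be kept and overlapped, with differences of 0.26 and 0.51. The remaining higher genes of the 15 were Med18, a Mediator subunit, Car6, a secreted carbonic anhydrase, Lonp2, a peroxisomal protease, Birc5, and Nop58, a protein of small nucleolar ribonucleoproteins. Of the 30 genes in both directions, 11 had another kept probe set. All others of the gene were separated the same way for 3 genes (F5, Gbp6 and Rsad2), none for 7 (Nrip2, Lonp2, Cysrt1, Sgsm1, Foxm1, Rprd1a and Asns) and some for 1 (Zdhhc14). Among the genes named from lists, the other kept probe sets were all separated the same way for Iigp1, Gbp2, H2-Ab1, Fn1, Cd44, Itga6, Vegfa and Ace. At least 1 of them overlapped for Tapbp, H2-D1, Mmp14, Nfkbia, Ms4a4c, Bub1b, Cdca8, Csf1r, Grn, Ifi35 and the genes for which this is given below.

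Among the genes lower in both transgenic pools, Rsad2 was separated on each of its kept probe sets. Rsad2, the antiviral enzyme viperin, gave 18431 and 13801 in the controls and 6359 and 5582 in transgenic pools, with 6026 to 12445 at 48 hours. Its further probe sets gave 1921 and 1972 against 746 and 694, and 423 and 233 against 161 and 191, and the controls were the highest arrays on the probe set used. Rnf31, the catalytic subunit of the linear ubiquitin ligase, gave 708 and 725 against 301 and 102, and Mon1a, an activator of the late endosomal GTPase Rab7, gave 725 and 657 against 232 and 260. Chil3, a chitinase-like protein of myeloid cells, gave 1447 and 2163 against 617 and 661. For Mon1a and Chil3 both transgenic pools lay below all other arrays.

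Foxm1, a transcription factor for genes of mitosis, gave 1975 and 6507 in the controls and 497 and 597 in transgenic pools, which is a log2 difference of −2.65 (SE 0.62) and −1.80 without control pool 2. Its other kept probe set gave 342 and 154 against 78.6 and 282, with overlap. Zdhhc14, a palmitoyltransferase, gave 29283 and 32925 against 13078 and 10263, but its 3 next brightest probe sets differed by only −0.38 to −0.44 log2 units. Slc12a4, a potassium chloride cotransporter, gave 649 and 709 against 219 and 260. Rprd1a, which binds the tail of RNA polymerase II, gave 1723 and 2427 against 672 and 599, a log2 difference of −1.64 (SE 0.28), adjusted p = 0.38 in limma, and −1.40 without control pool 2.

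Type I interferon acts through the factor ISGF3, which binds the interferon-stimulated response element, a paired GAAA motif, in the promoters of its targets. The genes' promoter windows, from 250 bases before to 50 after the start, were taken from RefSeq on build GRCm38.p6 to see whether members that moved together share this element. Windows were found for 22 of the 30 measured members of the type I interferon list. The core, GAAA and again GAAA with any 2 bases between them, on either strand, matched in 13 of these (59.1%), against 3.77% of the 10488 tested genes with a window. It matched in 6 of 10 members that were lower without overlap and in 7 of 12 that overlapped, so its presence did not mark those that separated. Of the list of interferon gamma inducible GTPases and chemokines, 6 of 8 had a match. The stretches below show it for 7 genes that were lower without overlap, 5' to 3' on the gene's strand, with matched bases in capitals. Ifitm3 and Irgm2, which overlapped and have values below, also had a match and are not shown. A match describes letters and not binding.
Ifit1 (chr19:34640755-34640843, plus strand): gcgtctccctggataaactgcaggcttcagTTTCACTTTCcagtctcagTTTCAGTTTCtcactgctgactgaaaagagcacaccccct
Ifit3 (chr19:34583343-34583446, plus strand): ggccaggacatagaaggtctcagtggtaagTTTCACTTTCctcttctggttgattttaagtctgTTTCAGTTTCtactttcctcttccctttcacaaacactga
Rsad2 (chr12:26456533-26456602, minus strand): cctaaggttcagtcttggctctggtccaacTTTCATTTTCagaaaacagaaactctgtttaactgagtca
Oas3 (chr5:120777695-120777764, minus strand): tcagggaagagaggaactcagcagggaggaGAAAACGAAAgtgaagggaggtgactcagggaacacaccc
Gbp2 (chr3:142620574-142620643, plus strand): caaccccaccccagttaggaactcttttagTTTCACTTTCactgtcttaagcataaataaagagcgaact
Irgm1 (chr11:48871405-48871480, minus strand): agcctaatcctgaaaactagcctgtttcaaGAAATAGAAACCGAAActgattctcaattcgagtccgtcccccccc
Igtp (chr11:58199492-58199561, plus strand): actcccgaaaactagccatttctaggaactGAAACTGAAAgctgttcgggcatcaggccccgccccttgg

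Most type I interferon response genes had lower signals in transgenic pools, by amounts that depended on control pool 1. Of 30 measured members, 28 had a negative difference, and 16 were lower (53.3%, against 17.2% of all genes) and 0 higher without overlap. In limma, 0 of the 30 passed over all genes. The median log2 difference was −1.0. It was −1.60 without control pool 2 and −0.39 without control pool 1. Ifit2, an RNA-binding antiviral protein, gave 20224 in control pool 1, 3318 in control pool 2, and 2153 and 1081 in transgenic pools 1 and 2. Ifit1 gave 7218 and 1744 in control against 1212 and 890, and Ifit3 gave 3544 and 1131 against 707 and 495. In all 3, control pool 1 was more than 3-fold above the next pool, and the groups did not overlap. Oas3, which makes 2'-5' oligoadenylate on double-stranded RNA, gave 1380 and 364 against 317 and 88.0. Usp18, the protease that removes ISG15, gave 5082 and 1560 against 1288 and 655. Mx1, an antiviral GTPase, gave 1618 and 842 against 389 and 396. Ifitm3, which blocks viral entry, gave 43833 and 17912 against 24763 and 18990, so control pool 2 was the lowest, and its difference of −0.37 turned to 0.28 without control pool 1. Relative to the mean of the 8 arrays, the list's median stood at 1.29 in control pool 1 and 0.07 in control pool 2, and at −0.07 and −0.62 in the transgenic pools. At 48 hours it stood at −0.49 and 0.17 in the controls and −0.04 and −0.09 in transgenic pools.

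GTPases and other genes induced by interferon gamma also mostly had lower signals in transgenic pools. Of 12 measured members, 11 were negative and 6 were lower without overlap (50%, against 17.2% of all genes). The list's median was −0.76, and −1.04 without control pool 2. Iigp1, a GTPase that acts on vacuoles of pathogens, gave 13732 and 10386 in the controls and 6150 and 4683 in transgenic pools, which is a log2 difference of −1.15 (SE 0.28), adjusted p = 0.728 in limma. Both controls exceeded all other arrays for Iigp1, and it differed by −1.35 without control pool 2 and −0.95 without control pool 1. Gbp2, a guanylate-binding protein, gave 6923 and 7664 against 4559 and 5507, and here too both controls were the highest arrays. Gbp6 gave 3754 and 1396 against 601 and 400. Igtp gave 6341 and 2830 against 2589 and 1679, and Irgm1 gave 2836 and 1083 against 1045 and 852, so that only control pool 1 stood far above the rest. Irgm2 gave 4167 and 1611 against 1652 and 1062, with overlap. The chemokine Cxcl9 gave 714 and 3318 against 783 and 1211, also with overlap, and here control pool 2 was highest and control pool 1 lowest. Ido1, which breaks down tryptophan, gave 678 and 171 against 81.6 and 61.1.

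**Figure D2:**
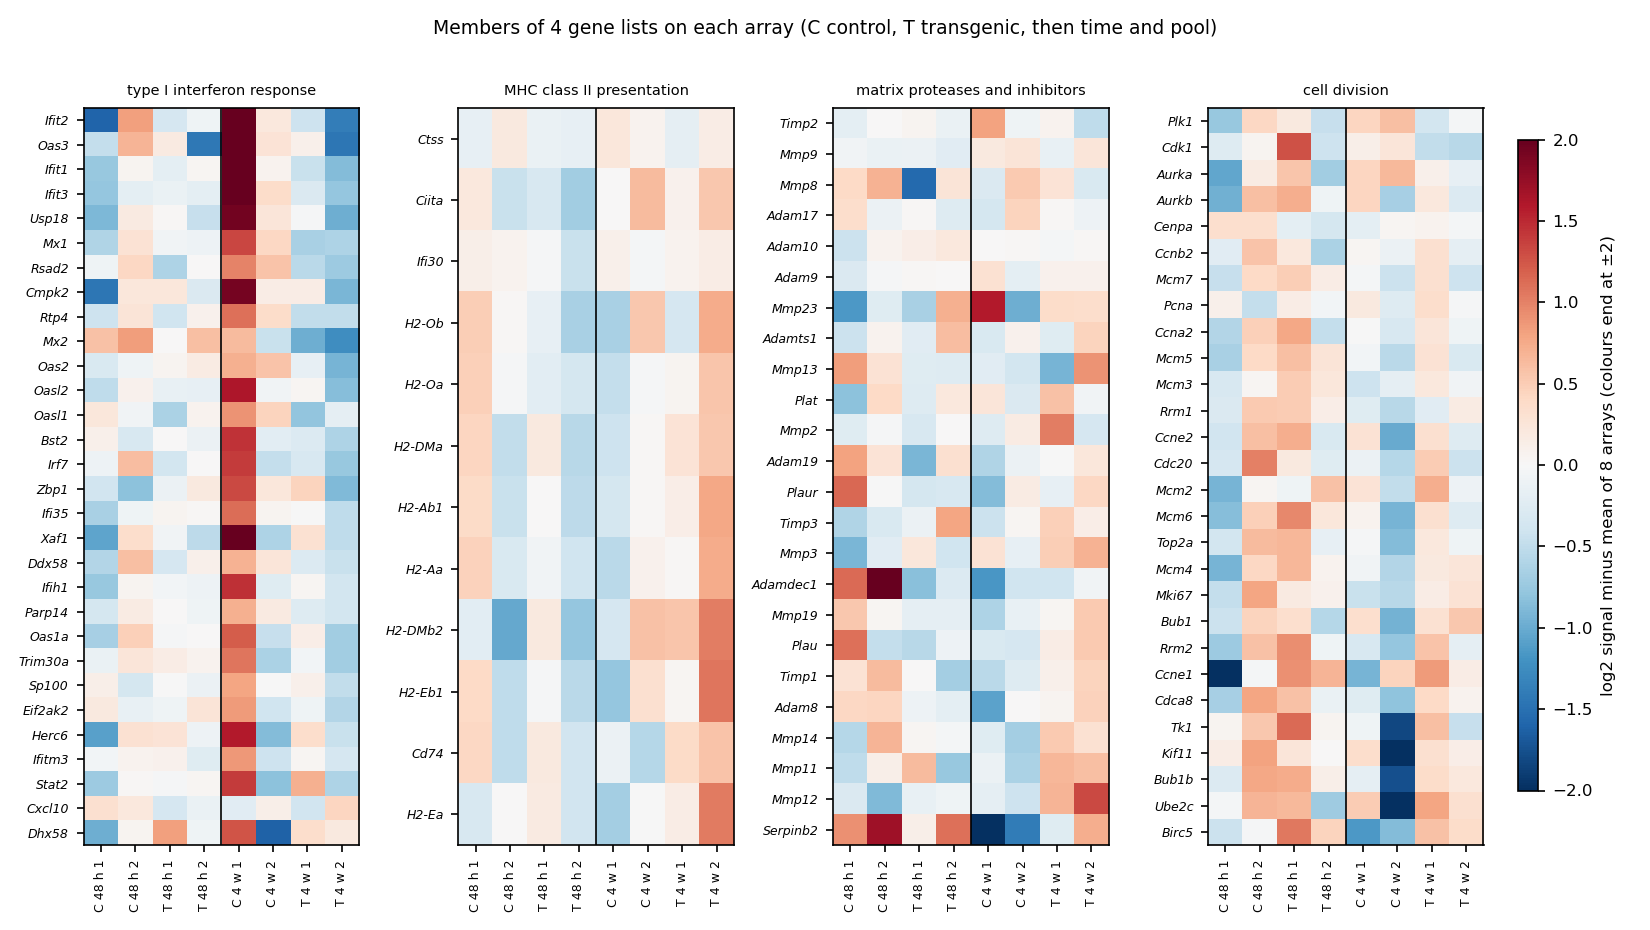
Log2 signal of each measured member of 4 gene lists on the 8 arrays, relative to the member's mean over the arrays; red is above and blue below that mean, and members run from the lowest to the highest 4 weeks difference. Control 4 weeks pool 1 is the reddest column of the interferon list, whose median there was 1.29, and control 4 weeks pool 2 is the bluest of cell division, at −0.56.

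Among MHC class I genes, Tap1, Nlrc5, Psmb9, Tapbp and H2-D1 had lower signals in both transgenic pools. Of 12 measured members, 10 were negative and 5 were lower without overlap (41.7%, against 17.2% of all genes). The list's median was −0.16, and −0.67 without control pool 2. Tap1, the peptide transporter, gave 1284 and 1140 in the controls and 745 and 536 in transgenic pools, which is a log2 difference of −0.90 (SE 0.29) and −0.99 without control pool 2. Nlrc5, which activates transcription of class I genes, gave 955 and 948 against 533 and 589. Psmb9, an immunoproteasome subunit, gave 2139 and 1591 against 1195 and 1049, and Tapbp, which loads peptide, gave 6495 and 4824 against 3612 and 3748. For Tap1, Nlrc5 and Psmb9, both 4 weeks controls were the highest of the 8 arrays. The heavy chain gene H2-D1 gave 28070 and 26147 against 23916 and 24328, a difference of −0.17 only.

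Most MHC class II genes had higher signals in transgenic pools, with pool 2 above pool 1. Of 12 measured members, 11 were positive, and 5 were higher (41.7%, against 14.6% of all genes) and 0 lower without overlap. The list's median was 0.61, 0.82 without control pool 2 and 0.26 without control pool 1. Cd74, the invariant chain, gave 21543 and 15694 in the controls and 30525 and 34834 in transgenic pools. H2-Ab1, a class II beta chain, gave 20791 and 27065 against 28984 and 45499. Transgenic pool 2 was the highest of the 8 arrays for both. H2-Aa, an alpha chain, gave 21387 and 33229 against 31786 and 52394, and H2-Eb1 gave 1178 and 2558 against 2097 and 4308. For both, control pool 2 lay above transgenic pool 1. H2-Ea gave 5115 and 8144 against 9077 and 16785 on the probe set used. Its other kept probe sets gave 9131 and 6659 against 4156 and 13180, and 133 and 199 against 6.90 and 7.30, so its direction depends on the probe set. Without transgenic pool 2 the list's median was 0.28.

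Class II promoters share the Y box, bound by the factor NF-Y. The letters CTGATTGG on either strand matched in 3 of 8 class II genes with a window (37.5%), in 4 of 10 class I genes, and in 6.36% of the tested genes. Among class II genes they matched in 1 of 2 that were higher without overlap and in 2 of 6 that overlapped. H2-Aa and H2-Eb1, which overlapped, are shown with these letters in capitals. The match in the member that was higher is not shown.
H2-Aa (chr17:34287837-34287904, minus strand): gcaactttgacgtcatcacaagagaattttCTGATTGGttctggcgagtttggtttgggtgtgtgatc
H2-Eb1 (chr17:34305775-34305842, plus strand): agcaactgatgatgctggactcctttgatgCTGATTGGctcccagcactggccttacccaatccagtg

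Genes shared by dendritic cells and some macrophages lay on both sides. Of 15 dendritic cell markers measured, 5 were higher and 3 lower without overlap (33.3% and 20%, against 14.6% and 17.2% of all genes). The list's median was −0.01, or 0.29 without control pool 2. Itgax, which encodes Cd11c, gave 474 and 1205 in the controls and 1443 and 2164 in transgenic pools. Ccr7, a receptor for homing to lymph nodes, gave 336 and 542 against 602 and 1204, and Cd209a, a lectin of dendritic cells, gave 1286 and 1297 against 2195 and 2916. Control pool 1 was the lowest of the 4 for all 3. Ccl17, a ligand of the T cell receptor Ccr4, gave 66.7 and 497 against 714 and 1052, a log2 difference of 1.98 (SE 0.62) that was 3.20 without control pool 2 and 0.77 without control pool 1. The related Ccl22 gave 360 and 1488 against 928 and 1539, with overlap, and turned to −0.31 without control pool 1. Mgl2, a lectin of dermal dendritic cells and macrophages, gave 1450 and 586 against 1660 and 2507. Mgl2 and Ccl17 are not among the 15 markers and belong to the list of alternative activation. Of its 18 measured members, 3 were higher and 3 lower without overlap (16.7% each, near the background), with a median of 0.10. Among those lower was Clec10a, a lectin like Mgl2, at 64443 and 55373 against 48414 and 44031. Tcf4, a factor of plasmacytoid dendritic cells, gave 8090 and 7047 against 6294 and 5199, but its other 4 kept probe sets overlapped, with differences of 0.02, 0.06, −0.08 and 0.40. Xcr1, a receptor of cross-presenting dendritic cells, gave 152 and 133 against 120 and 31.5. The summed signal of the 15 dendritic cell markers was 21804 and 26890 in the controls and 30762 and 31390 in transgenic pools. Most of the difference between these sums came from 1 marker, Cd24a, at 4893 and 6488 against 13287 and 10022. Cd24a is also made by epithelium and immature leukocytes. The part of the dendritic cell markers in the class II difference was not tested.

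Matrix proteases and their inhibitors mostly had positive differences. Of 24 measured members, 19 were positive and 11 were higher without overlap (45.8%, against 14.6% of all genes), with 0 lower. The median was 0.47, 0.62 without control pool 2 and 0.27 without control pool 1. Mmp14, the membrane protease that activates Mmp2, gave 750 and 546 in the controls and 1294 and 1114 in transgenic pools. Timp1, a protease inhibitor, gave 367 and 451 against 586 and 754, and Adam8, a protease of leukocytes, gave 983 and 2102 against 2174 and 2903. Mmp11 gave 63.1 and 35.1 against 131 and 124, near the median signal of all probe sets, 108.1. Besides Mmp12, none of these exceeded all 48 hours arrays in both transgenic pools. Timp2, the brightest member, gave 36316 and 19550 against 21784 and 14594, with overlap and a difference of −0.58. Its other kept probe sets also overlapped, with differences from −0.07 to 0.96. The summed signal of the list was 75324 and 61948 in the controls and 69052 and 61646 in transgenic pools, so it was not higher there. Of 20 matricellular and adhesion genes, 6 were higher and 4 lower without overlap (30% and 20%, against 14.6% and 17.2% of all genes). The list's median was 0.24, or 0.22 without control pool 2. Fn1, fibronectin, gave 11656 and 12619 against 22498 and 23285, a log2 difference of 0.91 (SE 0.24) and 0.97 without control pool 2. Postn, periostin, gave 8155 and 8361 against 14325 and 11757. Cd44, the receptor for hyaluronan, gave 6073 and 8303 against 10828 and 14970, where the 48 hours arrays ran from 9569 to 16314. Itga6, a laminin receptor chain, gave 316 and 309 against 504 and 612. Postn is also a fibroblast gene, and of 16 fibroblast markers 5 were higher and 1 lower without overlap (31.2% and 6.25%). The median of these markers was 0.37, or 0.03 without control pool 2. Their summed signal was 119897 and 91815 in the controls and 129286 and 103270 in transgenic pools, and their part in the matrix result was not tested.

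Inflammatory cytokines gave a mixed picture in which control pool 1 was often lowest. Of 20 measured members, 14 were positive, 3 were higher and 2 lower without overlap (15% and 10%, near the background), and the median was 0.30, or 0.64 without control pool 2. Il1b gave 9627 and 14295 in the controls and 15582 and 28089 in transgenic pools, and 12146 to 20223 at 48 hours, with the genotypes in the opposite order. Il6 gave 3041 and 2825 against 4979 and 4776, a log2 difference of 0.73 (SE 0.38) and 0.68 without control pool 2. Il1rn, the antagonist of the interleukin 1 receptor, gave 1309 and 2566 against 2249 and 4126, with overlap. Tnf gave 1071 and 3105 against 1234 and 2682, so the transgenic pools lay between the controls, and its difference of 0.00 became 0.75 without control pool 2. Nfkbia, the inhibitor of NF-kB, gave 64056 and 75515 against 58778 and 60728. Ptgs2, the inducible cyclooxygenase, gave 3276 and 6287 against 5918 and 9543, with overlap.

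Chemokines separated upward about as often as genes at large and downward less often, and 5 of 11 chemokine receptors were higher in both transgenic pools. Of 22 chemokines, 3 were higher and 1 lower without overlap (13.6% and 4.55%, against 14.6% and 17.2% of all genes). Their median was 0.08, or 0.25 without control pool 2. Ccl7, which attracts monocytes through Ccr2, gave 5006 and 3198 in the controls and 6404 and 7350 in transgenic pools, and Ccl3 gave 5316 and 9130 against 8362 and 15007, with overlap. Cxcl1, a neutrophil attractant, gave 56396 and 77622 against 57706 and 77090, a difference of 0.01. Among the receptors 0 were lower without overlap (45.5% were higher), with a median of 0.32 and 0.41 without control pool 2. Besides Cx3cr1 and Ccr7 these included Ccr2, the receptor of inflammatory monocytes, at 2463 and 1277 against 3229 and 2513, a gap of 0.03. The other 3 kept probe sets of Ccr2 overlapped, such as 2493 and 1638 against 2429 and 2410. Ccr3 was also counted, at low signals of 7.8 and 19.3 against 99.5 and 19.6, a gap of 0.01.

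Growth and angiogenic factors separated upward about as often as genes at large. Of 22 measured, 4 were higher (18.2%) and 1 lower without overlap, with a median of 0.20 and 0.54 without control pool 2. Vegfa, which drives growth of vessels, gave 343 and 131 in the controls and 957 and 612 in transgenic pools, which is a log2 difference of 1.69 (SE 0.54), adjusted p = 0.978 in limma, and 1.09 without control pool 2. Its second probe set, at 32.2 and 11.6 against 86.5 and 112, was separated the same way. Hgf, a growth factor for epithelium, gave 267 and 205 against 390 and 454. Wnt7b gave 24.3 and 49.9 against 165 and 116, on a dim probe set. Vegfc, a lymphatic growth factor, gave 91.6 and 229 against 224 and 388, with overlap. For Hgf and Wnt7b, both 4 weeks controls lay below all 48 hours arrays. Of 15 genes of FGF receptors and their feedback, 3 were higher and 1 lower without overlap (20% and 6.67%, against 14.6% and 17.2% of all genes). Spry1, a feedback inhibitor of receptor tyrosine kinases, gave 472 and 516 against 657 and 932, and Spry4 gave 75.9 and 135 against 22.7 and 58.9.

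**Figure D3:**
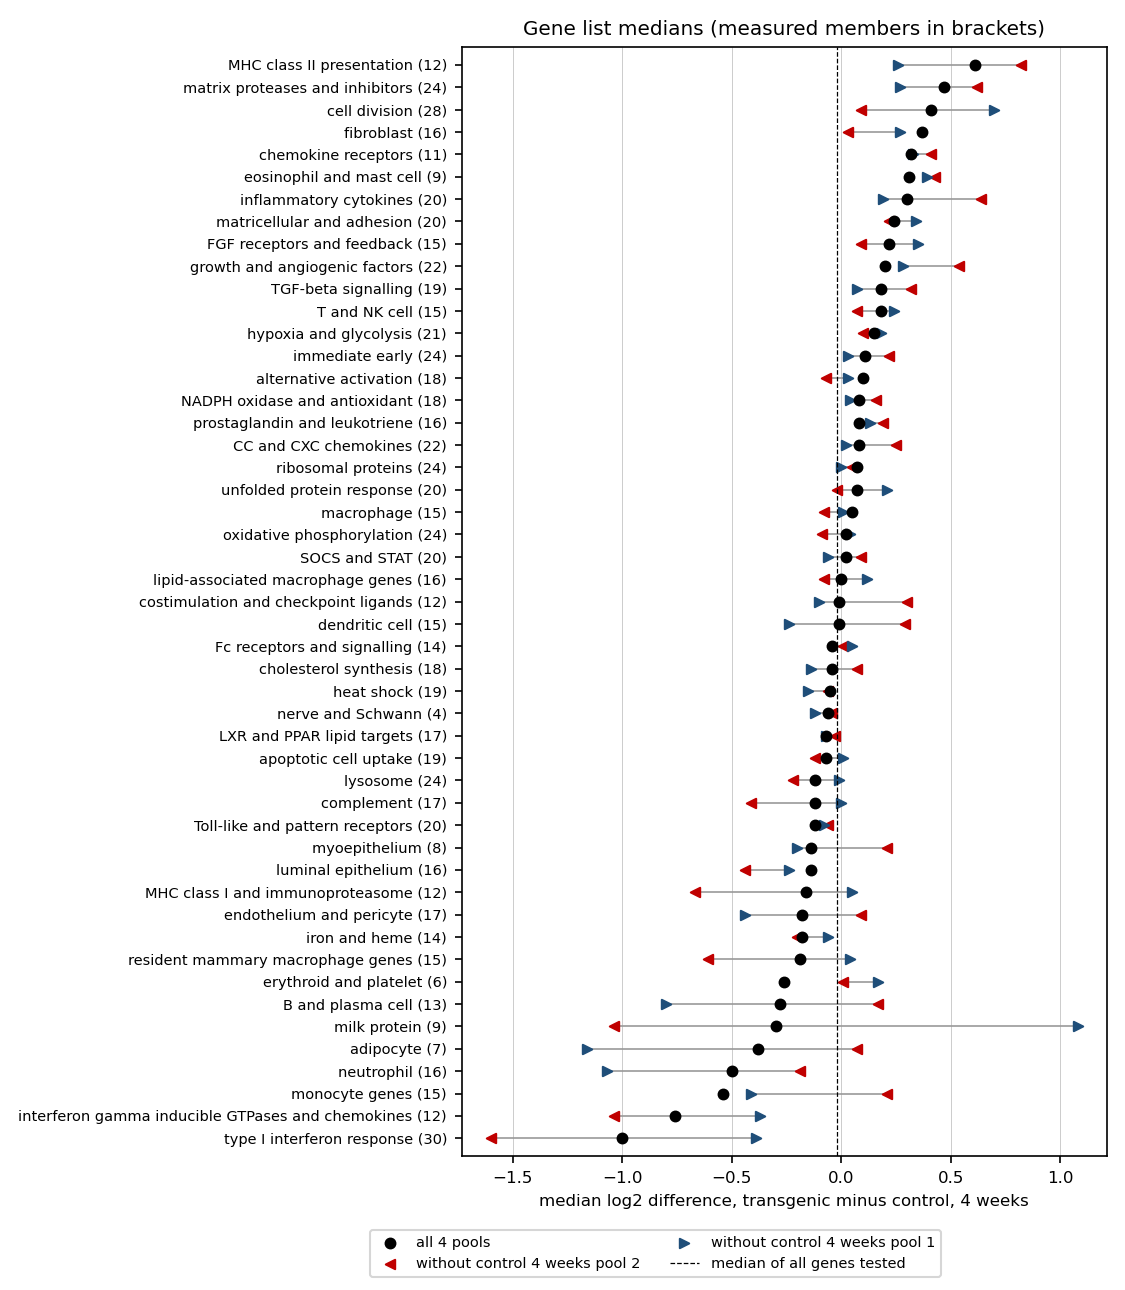
Median log2 difference, transgenic minus control at 4 weeks, of each gene list with all 4 pools (black) and without either control pool (triangles); the dashed line is the median of all genes, −0.02. The interferon medians (−1.0 and −0.76) lie furthest left and those of MHC class II and matrix proteases (0.61 and 0.47) furthest right, and the monocyte list lies on the other side of the line without control pool 2 (0.21).

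Monocyte genes divided into higher and lower members. Of 15 measured, 4 were higher and 5 lower without overlap (26.7% and 33.3%, against 14.6% and 17.2% of all genes). The list's median of −0.54 turned to 0.21 without control pool 2. Fn1 and, on 1 of its probe sets, Ccr2 were on the higher side. On the lower side, Ace, the angiotensin-converting enzyme, gave 586 and 505 in the controls and 183 and 252 in transgenic pools, and Hp, haptoglobin, gave 418 and 983 against 309 and 145. Ms4a4c, also induced by interferon, gave 20289 and 5693 against 4205 and 4525. Plac8 gave 34767 and 9998 against 12014 and 6246, with overlap. Control pool 1 was more than 2-fold above the other pools for both.

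Neutrophil genes mostly had negative differences, larger against control pool 2. Of 16 measured markers, 14 were negative, and 4 were lower and 1 higher without overlap (25% and 6.25%, against 17.2% and 14.6% of all genes). The list's median was −0.50, −0.19 without control pool 2 and −1.07 without control pool 1. S100a8, of the calprotectin pair, gave 3172 and 11267 in the controls and 2125 and 1431 in transgenic pools, and S100a9 gave 1015 and 3328 against 757 and 499. Ltf, lactoferrin of granulocytes and epithelium, gave 1048 and 1017 against 367 and 408, with both controls alike and at the top of the 8 arrays. Elane, neutrophil elastase, gave 242 and 197 against 55.9 and 46.9. The summed signal of the markers was 20238 and 29745 in the controls and 14479 and 13278 in transgenic pools. Of 9 eosinophil and mast cell markers, 5 were higher (55.6%, against 14.6% of all genes) and 0 lower without overlap. The median of these markers was 0.31, and 0.43 without control pool 2. Siglecf, of eosinophils, gave 215 and 403 against 695 and 552, and Ms4a2, the beta chain of the IgE receptor, gave 28.2 and 17.9 against 155 and 118. Tpsb2, a mast cell tryptase, gave 51.8 and 76.3 against 155 and 160. The controls of Ms4a2 and Tpsb2 lay below the median signal of all probe sets, 108.1. A dim probe set of Tpsb2 went the other way, at 108 and 67.5 against 11.4 and 50.4. Ccr3 also counted as higher, at 7.8 and 19.3 against 99.5 and 19.6, a gap of only 0.01. Kit counted at 129 and 142 against 194 and 159, while its other kept probe set overlapped, with a difference of −0.78. Cpa3 gave 1247 and 898 against 1214 and 1151, and Hdc gave 653 and 2386 against 585 and 1342, both with overlap. Of the 9 markers, 6 were positive and 3 negative. The summed signal of the 9, 3122 and 5018 against 4150 and 4212, overlapped between genotypes. Of 15 T and NK cell markers, 3 were higher and 1 lower without overlap (20% and 6.67%). Cd8a gave 522 and 297 against 796 and 991 on the probe set used, while its other 3 kept probe sets overlapped, with differences of −0.65, −0.29 and 0.23. Gzmb gave 148 and 166 against 89.2 and 73.0.

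Genes of resident mammary macrophages mostly overlapped between the genotypes. Of 15 measured, 13 were negative, but only Cd163 was lower without overlap (6.67%, against 17.2% of all genes). It gave 22043 and 18518 in the controls and 17434 and 17391 in transgenic pools. Lyve1, a hyaluronan receptor of resident macrophages, gave 40631 and 17766 against 29489 and 19051, and Folr2, a folate receptor, gave 12417 and 5202 against 10106 and 4712. The 2 pools of a genotype differed more than the genotypes for both. Mrc1, the mannose receptor, gave 42732 and 33732 against 40128 and 41399. The list's median of −0.19 was −0.61 without control pool 2 and 0.04 without control pool 1. Cd68 gave 12975 and 9638 against 10323 and 8841. Arg1, arginase 1 of alternative activation, gave 154 and 131 against 139 and 109.

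Cell division genes were positive mostly against control pool 2. Of 28 measured, 25 were positive, and 8 were higher and 3 lower without overlap (28.6% and 10.7%, against 14.6% and 17.2% of all genes). The list's median of 0.41 was 0.09 without control pool 2 and 0.70 without control pool 1. Birc5, survivin, gave 144 and 182 in the controls and 552 and 470 in transgenic pools, which is a log2 difference of 1.48 (SE 0.34) and 1.63 without control pool 2. Mki67, the proliferation antigen, gave 4344 and 4047 against 6570 and 7280, with 4252 to 10228 at 48 hours. For both genes the controls agreed closely and were below the transgenic pools. Bub1b, of the spindle checkpoint, gave 274 and 70.9 against 415 and 367, and Cdca8 gave 1825 and 1220 against 2855 and 2279. On the arrays as a whole, the list stood at −0.04 and −0.56 in the controls and 0.31 and −0.07 in transgenic pools.

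Transcripts of the luminal epithelium were measured in the sorted cells. Of 16 measured, 12 were negative, and 2 were lower (12.5%, against 17.2% of all genes) and 0 higher without overlap. The list's median was −0.14, and −0.44 without control pool 2. Krt8 gave 3965 and 2137 in the controls and 2549 and 1466 in transgenic pools, and Krt18 gave 1405 and 926 against 1088 and 551, both with overlap. Foxa1, a factor of hormone-sensing luminal cells, gave 769 and 673 against 326 and 246. The summed signal of the luminal markers was 17058 and 12066 in the controls and 13858 and 8842 in transgenic pools, and its part in the difference of Ltf, which epithelium also makes, was not tested.

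**Figure D4:**
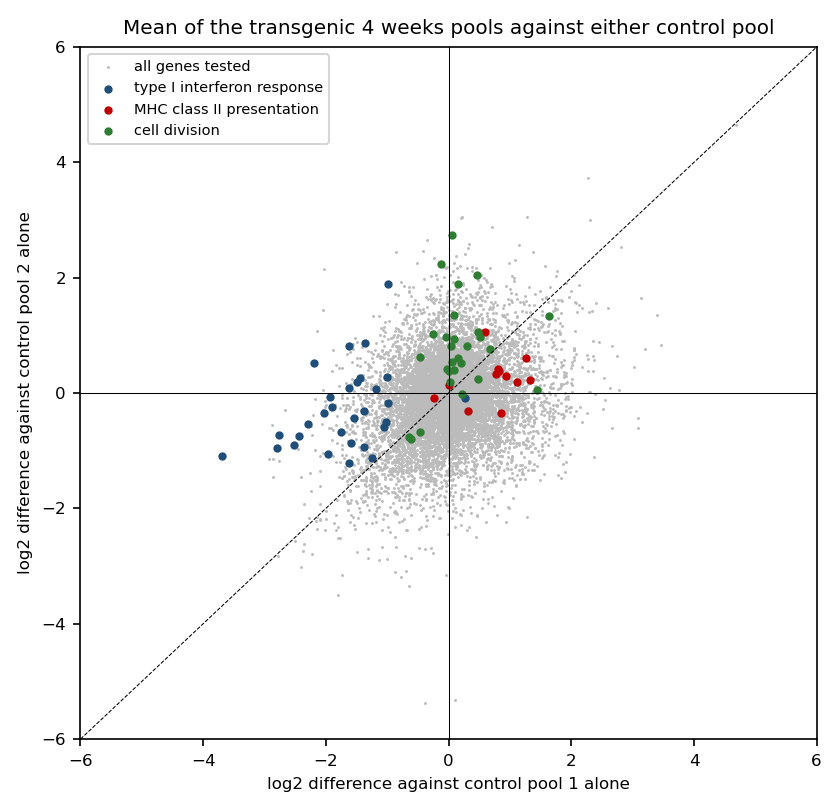
Log2 difference of the mean of both transgenic 4 weeks pools against control pool 1 alone (x) and control pool 2 alone (y), 1 point per gene; on the dashed line the 2 controls are equal. Interferon genes (blue) lie left of it, at medians of −1.60 against pool 1 and −0.39 against pool 2, and cell division genes (green) above it, at 0.09 and 0.70.

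The genotype difference at 4 weeks was then set against that at 48 hours, with the same 8 arrays and spread. In limma, 0 of 13070 genes passed for this difference of differences (0%). The lowest adjusted p was 0.19, for Zdhhc12, and 616 genes had an unadjusted p under 0.05, where 654 would arise without any difference. Cx3cr1 differed by 1.72 at 4 weeks and −0.66 at 48 hours, a change of 2.38 (SE 0.42), adjusted p = 0.366 in limma. F5 differed by 1.41 and −0.77, with a change of 2.17 (SE 0.36), and Ltf by −1.35 and 1.19, with a change of −2.54 (SE 0.40). Krt8 differed by −0.58 at 4 weeks and 2.21 at 48 hours, a change of −2.80 (SE 0.50), adjusted p = 0.366 in limma. At 48 hours the luminal markers summed to 5969 and 6312 in the controls and 14515 and 15470 in transgenic pools. Their median difference there was 0.96, and that of the neutrophil markers was −0.21. The part of either in the change of Ltf was not tested. Birc5 and Vegfa were higher in transgenic pools at both times, with 0.98 (SE 0.34) and 1.20 (SE 0.54) at 48 hours. Rsad2 was lower at both, at −0.47 (SE 0.27) at 48 hours.

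Because its labels conflict, transgenic pool 2 was also left out, which leaves pool 1 against both controls. Cx3cr1 then differed by 1.34, F5 by 1.36, Serpinb2 by 1.91, Vegfa by 2.00 and Fn1 by 0.89. Rsad2 differed by −1.32, Ltf by −1.42, Iigp1 by −0.95 and Tap1 by −0.68. These kept their direction. Il1b differed by 0.41 and Cd74 by 0.73. The type I interferon median was −0.74, that of MHC class II 0.28, of matrix proteases 0.40, of cell division 0.62 and of monocyte genes −0.66. The median of the inflammatory cytokines was −0.04, so its positive value rested on pool 2.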

How the data were processed

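The deposited values are MAS5 signal intensities per probe set made by the authors, per the submitters' processing notes, on a linear scale. The mean without the lowest and highest 2% was 500 on each array. No detection calls or versions were used here. Of 45101 probe sets, 34945 had 1 gene symbol. A probe set was kept where it exceeded the median signal of the array on 2 or more arrays, and the brightest kept one stood for its gene.

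Values were log2(signal + 30.8), 30.8 being the 25th percentile. Genes were fitted with limma 3.58.1 in R 4.3.3 (4 group means, trended prior, 4 residual degrees of freedom), with two-sided p adjusted by Benjamini-Hochberg over all genes. The fit was tested on simulated data.

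The genes and the 35 gene and 14 marker lists were chosen with earlier results of these data known. Named genes are the 15 per direction with the largest gap and a mean signal of at least 500, any gene past the threshold, a list's 6 largest differences and 3 brightest members, and a fixed set. Sequences are RefSeq's. Alternatives were quantile normalization, other offsets and filters, the mean over probe sets, 4 weeks arrays alone, a replicate block, no trend, array weights, the actin ratio as covariate, and each pool left out. Pool numbers were not shown to pair the samples. Figures used Python 3.11.15 with matplotlib 3.10.9.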

Additional observations from a re-analysis of the deposited data

Results flagged for a closer look

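Of 13070 genes, 717 did not overlap between genotypes at either time and were ordered oppositely at 4 weeks and 48 hours. Among the genes named, the following did so. The difference between the times was tested in limma for each, and no adjusted p was under 0.05 (lowest 0.335, for Med18 and Ltf).

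Higher at 4 weeks and lower at 48 hours were Med18 (log2 differences of 1.81 and −1.11), Cx3cr1 (1.72 and −0.66), F5 (1.41 and −0.77), Itgax (1.19 and −0.43), Cd44 (0.84 and −0.50), Il1b (0.83 and −0.46), Adam8 (0.79 and −0.57), Timp1 (0.67 and −0.80) and Nr4a1 (0.46 and −0.37). Lower at 4 weeks and higher at 48 hours were Sgsm1 (−2.14 and 1.28), Ido1 (−1.90 and 1.35), Rnf31 (−1.83 and 0.10), Ltf (−1.35 and 1.19), Foxa1 (−1.25 and 1.00), Ifi35 (−0.85 and 0.40), Nlrc5 (−0.73 and 0.22) and Cd163 (−0.21 and 0.12). Ifi35, an interferon-induced protein, gave 27188 and 13021 in the controls and 12384 and 8761 in transgenic pools at 4 weeks. At 48 hours Rnf31 gave 302 and 344 in the controls and 351 and 346 in transgenic pools, so it was barely separated there.

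Medians of lists did so for eosinophil and mast cell markers (0.31 at 4 weeks and −0.32 at 48 hours) and LXR and PPAR lipid targets (−0.07 and 0.17). For these medians the difference was not tested.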

How the results depend on the processing

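With 2 pools per group, each fit without a 4 weeks pool rests on 1 pool of that group, whose spread is assumed to be that of the other groups. Limma called 0 genes at 4 weeks. It called 1, Nrip2, with the 4 weeks arrays alone (adjusted p = 0.00234), and 0 to 1 when a pool was left out. The 1 was again Nrip2, without either transgenic 48 hours pool. With the pool number as a replicate block it called 2, Dnajc17 and Serpinb2 (adjusted p = 0.0403). The deviations of same-numbered pools correlated at 0.12 across genes at 4 weeks and 0.02 at 48 hours, so the numbers are not shown to pair the samples. For the difference between times, leaving out a pool gave 0 to 1 genes. The lowest adjusted p over the settings ran from 0.000678 to 1.

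Counts without overlap became 1127 higher and 1146 lower with a filter at the 75th percentile. Leaving out a pool gave 1912 to 4325 higher and 2245 to 4938 lower, where fewer pools make non-overlap easier. Counts with a gap of 1 became 12 and 15 with that filter, 92 and 181 with no filter, 120 and 192 with no offset and 13 and 24 with the offset at the median. They were 262 and 424 with a gap of 0.5, and 57 to 413 higher and 104 to 516 lower with a pool left out.

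With the actin ratio as covariate, the monocyte median was 0.22 and that of cell division 0.08. With a pool left out, medians ran from 0.26 to 0.86 for MHC class II, −0.66 to 0.21 for monocyte genes, 0.27 to 0.62 for matrix proteases and 0.09 to 0.70 for cell division. Medians of inflammatory cytokines (−0.04 without transgenic pool 2) and MHC class I genes (0.05 without control pool 1) also turned sign. The interferon medians kept their sign in every setting run.

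The single genes below changed sign. With the actin ratio as covariate they were Itgam (−0.39), Tnf (0.68), Mrc1 (−0.07) and Fgfr1 (−0.46). Csf1r was 0.02 with quantile normalization and H2-Ea −0.50 as the mean over its probe sets. With a pool left out, the lowest and highest values were −1.01 and 0.28 for Ifitm3, −0.31 and 1.65 for Ccl22, −0.42 and 2.47 for Itgam, −0.76 and 0.75 for Tnf, −0.22 and 0.24 for Cxcl1, −0.07 and 0.27 for Mrc1, −0.78 and 0.42 for Lyve1, −0.84 and 0.41 for Folr2 and −0.53 and 1.10 for Fgfr1. Without transgenic pool 2, the pool with conflicting labels, Cxcl1 was −0.20, Lyve1 0.13 and Folr2 0.33. The causes were not tested.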

Other observations

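Of 20 unfolded protein response genes, 4 were lower and 2 higher without overlap at 4 weeks (20% and 10%, near the shares of all genes), with a median of 0.07. Asns, which makes asparagine, gave 835 and 842 in the controls and 413 and 265 in transgenic pools, and Trib3, a pseudokinase, gave 243 and 154 against 28.4 and 25.1. Ddit3, a stress transcription factor, gave 1949 and 1470 against 1282 and 951. Atf4, the transcription factor of this group, gave 15863 and 20144 against 13632 and 17797, with overlap. The other kept probe set of Asns, at 192 and 98.7 against 159 and 123, overlapped. Tfrc, the transferrin receptor, gave 5059 and 6493 against 3685 and 3579, while its 2 other kept probe sets overlapped. Of 14 iron and heme genes, 4 were lower and 1 higher without overlap (28.6% and 7.14%, against 17.2% and 14.6% of all genes).

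Lysosomal genes were lower without overlap in 7 of 24 and higher in 3, by small amounts, with a median of −0.12. These shares were 29.2% and 12.5%, against 17.2% lower and 14.6% higher among all genes. Grn, progranulin, gave 58973 and 58267 in the controls and 51837 and 52333 in transgenic pools. Of 21 genes of hypoxia and glycolysis, 6 were higher and 1 lower (28.6% and 4.76%). Among the higher was Pgk1, a glycolytic kinase, at 16391 and 14117 against 19123 and 18352 on the probe set used, with 1 other that overlapped. Of 19 TGF-beta genes 4 were higher (21.1%) and 0 lower, with Ski, a repressor of SMAD signalling, at 1618 and 1280 against 2623 and 2200. Of 24 immediate early genes 6 were higher and 1 lower (25% and 4.17%). Nr4a1 gave 8298 and 8412 against 12336 and 10716, and Zfp36, which destabilises cytokine mRNAs, gave 20140 and 14376 against 23438 and 24891. Ribosomal proteins (median 0.07), oxidative phosphorylation (0.02), heat shock (−0.05) and cholesterol synthesis (−0.04) lay near the median of all genes, −0.02. Cd24a, a surface protein of epithelium and immature leukocytes, gave 4893 and 6488 against 13287 and 10022.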
